A study of Homo sapiens with 6 samples.

Results

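The collagen genes were followed through a Wnt3a stimulation and a knockdown of SET8 in HEK293 cells, which descend from human embryonic kidney. Members were taken by name: every probe set whose gene name on the array reads COL, a number, A and a number. The rule found 72 probe sets of 41 genes among 45033 probe sets on the array. Of these genes, 16 have 1 probe set and 25 have several. RefSeq lists 44 protein-coding collagen genes by the same pattern, and 3 of them (COL26A1, COL6A5 and COL6A6) were not matched to a probe set. Each probe set is named here by its gene and the transcript identifier the array gives it, and each combines 3 probes.

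There were 3 groups of 2 arrays. In the first group HEK293 cells carried a control shRNA and received control conditioned medium. In the second group they carried the same control shRNA and received Wnt3a conditioned medium. In the third group they carried an shRNA against SET8, the enzyme that mono-methylates histone H4 at lysine 20, and also received Wnt3a medium. The labels name the agent as shRNA in the treatment and with the prefix si in the titles, and shRNA is the word used here. Transfection lasted about 40 hours and the medium was left on for 7 hours in all 3 groups, and all cells were grown in DMEM with serum. The combination of SET8 shRNA and control medium is not analysed here, so a change in the Wnt3a response of any collagen with SET8 shRNA could not be tested. Nothing in the labels says that the 2 arrays of a group came from separate cultures, so p-values measure only how far these samples differ, which may be technical.

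Collagens are secreted proteins built from chains that wind into a triple helix. Some form striated fibrils, some form the sheet-like network of basement membranes, and others form beaded filaments, coat the surface of fibrils or span the cell membrane. A trimer needs its partner chains, so the chains of 1 type are often described side by side. Fibroblasts and bone and cartilage cells are the main makers of fibrillar collagens, while kidney epithelial cells are known above all for type IV, the collagen of basement membranes. Wnt3a is a secreted ligand that stabilises beta-catenin and turns on genes through TCF/LEF factors. The comparisons address the response to Wnt3a and the difference that SET8 shRNA makes in Wnt3a medium.

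The arrays were alike in overall brightness. The median log2 intensity lay between 7.63 and 7.79, and the random control, a set of 1994 random probes, lay between 4.66 and 4.84. Between 88.9% and 91.5% of all probe sets were above the random control of their array. Over all probe sets the correlation of replicate arrays was 0.972 for control medium, 0.976 for Wnt3a medium and 0.985 for SET8 shRNA. Among the probe sets tested, 6.87%, 8.98% and 1.86% differed by more than 2-fold between replicates, in the same order. The target of the shRNA, SET8 (named SETD8 on the array and now KMT5A), was lower with SET8 shRNA on both of its probe sets, by 2.94-fold (limma adjusted p = 0.236) and 2.16-fold (limma adjusted p = 0.326). Of 11 HEK293 markers, each read on its brightest probe set, 9 were above the array median in both arrays of every group. PAX2 and EYA1 were not.

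Most collagen probe sets gave a signal above the random control. Of the 72, 53 (73.6%, 32 genes) were above it in all 6 arrays, 18 in some arrays and 1 in none. Shares of all probe sets by the same counts are not given here, so these counts do not place collagens against the array. The 1 below it on all arrays was COL4A5 BC035387, while the other COL4A5 probe set was above it on every array. Both arrays of a group were above the random control for 62 probe sets with control medium, 57 with Wnt3a medium and 58 with SET8 shRNA. In control medium, 4 probe sets were at or below it in both arrays (COL4A3 NM_031363, COL4A5 BC035387, COL9A1 NM_001851 and COL13A1 NM_005203). In Wnt3a medium there were 6 (COL4A5 BC035387, COL8A1 AF170702, COL13A1 NM_080802, COL19A1 NM_001858, COL24A1 NM_152890 and COL25A1 BC036669). With SET8 shRNA there were also 6 (COL4A5 BC035387, COL8A1 AF170702, COL10A1 NM_000493, COL13A1 NM_005203, COL19A1 NM_001858 and COL28A1 XM_295195).

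Against the array median, a stricter level, 28 collagen probe sets of 19 genes were above it in all 6 arrays and 31 of 24 genes in none. The brightest by their mean over the 6 arrays were COL4A2, COL2A1 NM_001844, COL5A1 NM_000093, COL1A1 BC036531, COL6A2 NM_058175, COL7A1, COL18A1 BC063833, COL5A1 AB209864, and COL6A2 NM_058174 and NM_001849. They include chains of type IV and type XVIII, which sit in basement membranes, of type VII, the anchoring fibril below epithelia, and of type II, the main collagen of cartilage. Brightness depends on the probes as well as on the transcript, so it gives no order of expression between genes. For the tests, a probe set had to be above the median of its array in at least 2 of the 6 arrays. By this filter 36 of the 72 collagen probe sets (24 genes) were tested, among 23808 on the whole array. Another 5 reached the median in exactly 1 array (COL5A1 AK057231, COL6A3 NM_004369, COL11A2 BC053886, COL16A1 AB209571 and COL20A1 BC041767).

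**Figure D1:**
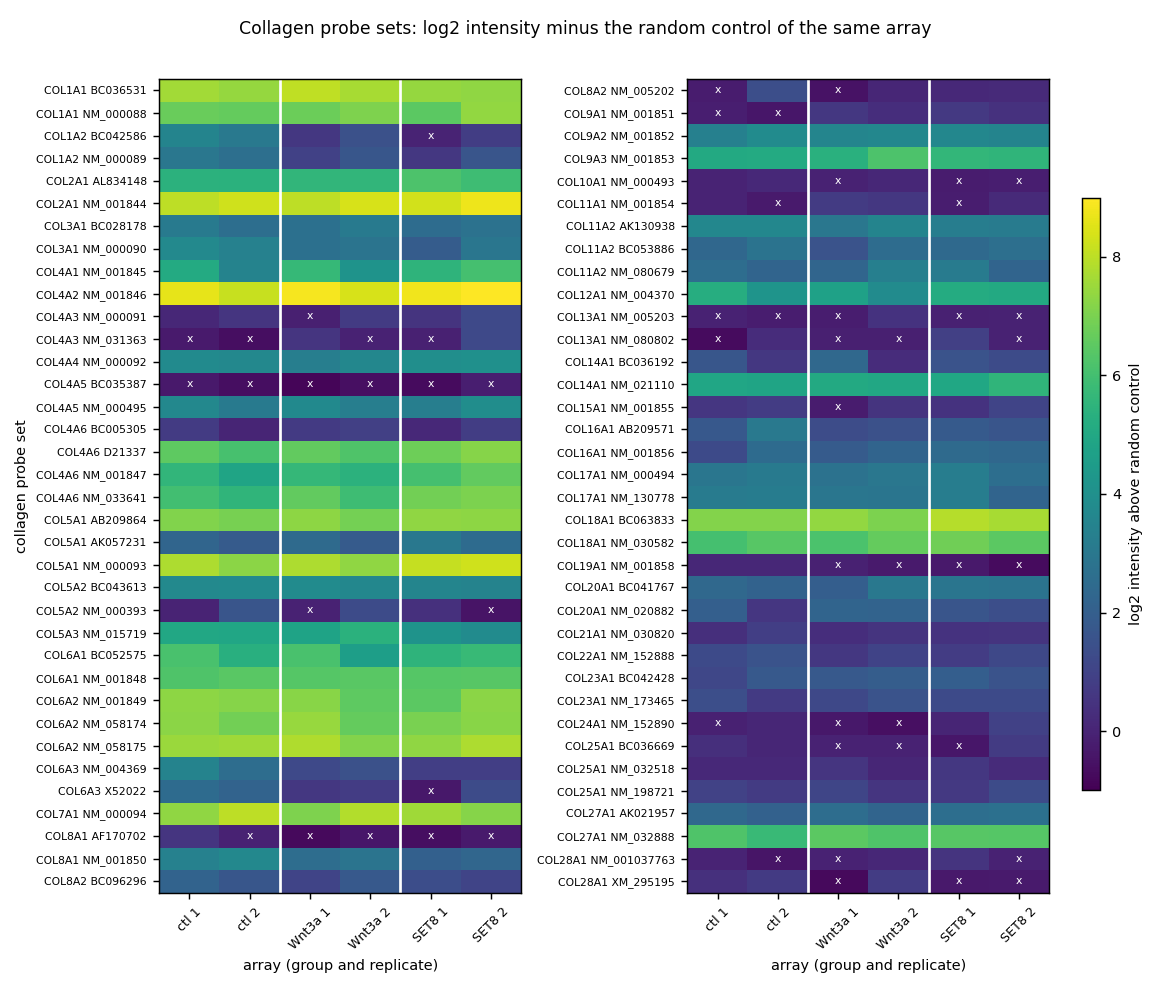
Heat map of all 72 collagen probe sets (rows) on the 6 arrays (columns); colour is log2 intensity minus the log2 random control of the same array, ctl is control shRNA with control medium, Wnt3a is control shRNA with Wnt3a medium, SET8 is SET8 shRNA with Wnt3a medium, and a white x marks a value at or below the random control. COL4A2, COL2A1 and COL5A1 are bright on every array, COL4A5 BC035387 is marked on all 6, and COL1A2, COL6A3 and COL8A1 are darker in the 4 arrays with Wnt3a medium than in the 2 with control medium.

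Several chains had lower values in Wnt3a medium than in control medium: both probe sets of COL1A2, a chain of type I collagen, both of COL6A3, the largest chain of type VI, and 1 of 2 of COL3A1, the chain of type III. In each of these 5 probe sets both Wnt3a arrays were at least 1.5-fold below both control medium arrays. COL11A1 NM_001854 was the 1 probe set that lay as far above. Those counts, 5 lower (6.94%) and 1 higher (1.39%) of 72, compare with 0.908% lower and 1.23% higher among all 45033 probe sets. They were made without a test. In the limma fit, with Benjamini-Hochberg adjustment over all probe sets tested, 0 of 36 collagen probe sets were under an adjusted p of 0.05 for Wnt3a, as were 0.0% of all 23808. At an unadjusted limma p under 0.05 there were 0 higher and 3 lower of 36 (COL1A2 BC042586, COL8A1 NM_001850 and COL3A1 NM_000090), against 1.61% higher and 0.529% lower over the array. With no filter there were 2 higher and 7 lower of 72, against 2.55% and 1.93% of all probe sets. COL1A2 BC042586, COL8A1 NM_001850 and COL3A1 NM_000090 passed the filter through the control medium arrays alone, where they are high. Their p-values and the count of 3 lower thus give no support of their own.

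The most negative fold change was on a probe set of the type I chain COL1A2. The probe set COL1A2 BC042586 (chromosome 7, 93862161 to 93897951, hg18) read 8.28 and 7.87 log2 units on the control medium arrays, 5.29 and 6.28 on the Wnt3a arrays, and 4.74 and 5.47 with SET8 shRNA. The means were 8.08 ± 0.29, 5.78 ± 0.70 and 5.10 ± 0.51 (SD, n = 2 each), and the control medium arrays lay apart from all 4 others. The value of 4.74 with SET8 shRNA was at or below the random control of its array. The log2 fold change with Wnt3a was -2.29 (SE 0.40, 4.91-fold lower; limma adjusted p = 1.0). The second COL1A2 probe set, NM_000089, read 7.72 and 7.49 on the control medium arrays, 5.59 and 6.46 on the Wnt3a arrays, and 5.38 and 6.31 with SET8 shRNA. Again the control medium arrays were the highest, and the log2 fold change with Wnt3a was -1.58 (SE 0.42, fit with no filter). This probe set stayed below the array median on all 6 arrays and was not among those tested.

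The partner chain of type I, COL1A1, was bright on all arrays. COL1A1 BC036531 read 12.35 and 12.27 on the control medium arrays, 12.70 and 12.48 on the Wnt3a arrays, and 12.18 and 11.99 with SET8 shRNA. Its log2 fold change with Wnt3a was 0.28 (SE 0.23) and with SET8 shRNA -0.50 (SE 0.23), with limma adjusted p of 1.0 and 0.725. COL1A1 NM_000088 had a log2 fold change of 0.17 (SE 0.33) with Wnt3a and -0.01 (SE 0.33) with SET8 shRNA. The difference between the changes of COL1A1 and COL1A2 was not tested.

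Type VI also holds a dim chain and bright ones. COL6A3 NM_004369 (chromosome 2, 237897400 to 237987559, hg18) read 8.23 and 7.40 on the control medium arrays, 5.88 and 6.27 on the Wnt3a arrays, and 5.59 and 5.53 with SET8 shRNA. COL6A3 X52022, which spans nearly the same positions, read 7.25 and 7.04, then 5.30 and 5.56, then 4.39 and 5.93, where 4.39 was below the random control. On both, the 2 control medium arrays were above the 4 others. The log2 fold changes with Wnt3a were -1.73 (SE 0.35) and -1.72 (SE 0.48), or 3.33-fold and 3.29-fold lower, in the fit with no filter, where the limma adjusted p were 0.974 and 1.0. COL6A1 and COL6A2, which lie side by side on chromosome 21 and complete the type VI trimer, were bright throughout. COL6A1 NM_001848 had a log2 fold change of -0.01 (SE 0.23) with Wnt3a and COL6A1 BC052575 of -0.41 (SE 0.48), the latter with Wnt3a arrays of 10.81 and 9.39. The 3 COL6A2 probe sets had log2 fold changes of -0.44, -0.07 and -0.13, all with overlapping arrays except NM_001849 (12.07 and 12.02 against 11.89 and 11.31). All 7 type VI probe sets had a negative log2 fold change with Wnt3a, where 52.5% of all probe sets on the array were higher. Their median of -0.41 is the value of COL6A1 BC052575. On both COL6A1 probe sets and on COL6A2 NM_058174 and NM_058175 the change was smaller than its SE. Only on the 2 COL6A3 probe sets were both Wnt3a arrays at least 1.5-fold below both control medium arrays.

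The 250 bases before the COL6A3 start are shown because both COL6A3 probe sets had lower values with Wnt3a. They come from RefSeq, chr2:237414165-237414414 (GRCh38.p14, minus strand), 5′ to 3′ in lower case. Of the motifs searched on both strands (the TATA box TATAAA, the box spelled CCAAT, the GC box spelled GGGCGG, and TCF/LEF words, which are CTTTG followed by AA, AT, TA or TT) none is in this window, so it has no capitals.
COL6A3: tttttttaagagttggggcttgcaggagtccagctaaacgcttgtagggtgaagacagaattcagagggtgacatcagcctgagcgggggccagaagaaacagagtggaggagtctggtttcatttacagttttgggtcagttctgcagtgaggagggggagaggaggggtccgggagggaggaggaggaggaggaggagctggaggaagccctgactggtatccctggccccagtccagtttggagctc

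COL3A1, the collagen of vessel walls and skin, gave different results on its 2 probe sets. COL3A1 NM_000090 (chromosome 2, 189547343 to 189585717, hg18) read 8.45 and 8.24 on the control medium arrays, 7.37 and 7.62 on the Wnt3a arrays, and 6.64 and 7.57 with SET8 shRNA. Its log2 fold change with Wnt3a was -0.85 (SE 0.34; limma adjusted p = 1.0). COL3A1 BC028178 read 7.88 and 7.46, then 7.35 and 7.92, then 7.29 and 7.45, so its groups overlapped, and the log2 fold change was -0.04 (SE 0.29). The neighbour gene COL5A2, which lies 19767 bases from COL3A1 in hg18 and encodes a chain of type V, had a log2 fold change of -0.09 (SE 0.23) on its brighter probe set BC043613.

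The short-chain collagens form hexagonal sheets in Descemet's membrane of the cornea and in growth plate cartilage. With Wnt3a 5 of 5 of their probe sets (3 genes) had a negative log2 fold change, with a median of -0.86. On the whole array 52.5% of probe sets were higher. Only 2 of the 5, COL8A1 NM_001850 and COL8A2 BC096296, were above the random control on all 6 arrays. COL8A1 NM_001850 (chromosome 3, 100840143 to 100997848, hg18) read 8.16 and 8.49 on the control medium arrays, 7.26 and 7.62 on the Wnt3a arrays, and 6.82 and 6.94 with SET8 shRNA. The 3 groups did not overlap, and the log2 fold change with Wnt3a was -0.89 (SE 0.25; limma adjusted p = 1.0). COL8A1 AF170702 was dim, at 5.28 and 4.80 in control medium, where 4.80 was itself below the random control of its array (4.84). It was at or below the random control in the 4 arrays with Wnt3a medium. Set against that control its difference was 1.24-fold, which is not a strict bound, since the control medium group was only partly measured above it. The partner chain COL8A2 had log2 fold changes of -0.59 (SE 0.37) and -0.86 (SE 0.55) on its dim probe sets, with overlapping arrays. The second of these, NM_005202, gives the median of the class. It was above the random control in 1 of 2 arrays in control medium and 1 of 2 in Wnt3a medium. COL10A1, the type X chain of hypertrophic cartilage, lay close to the random control on all arrays.

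**Figure D2:**
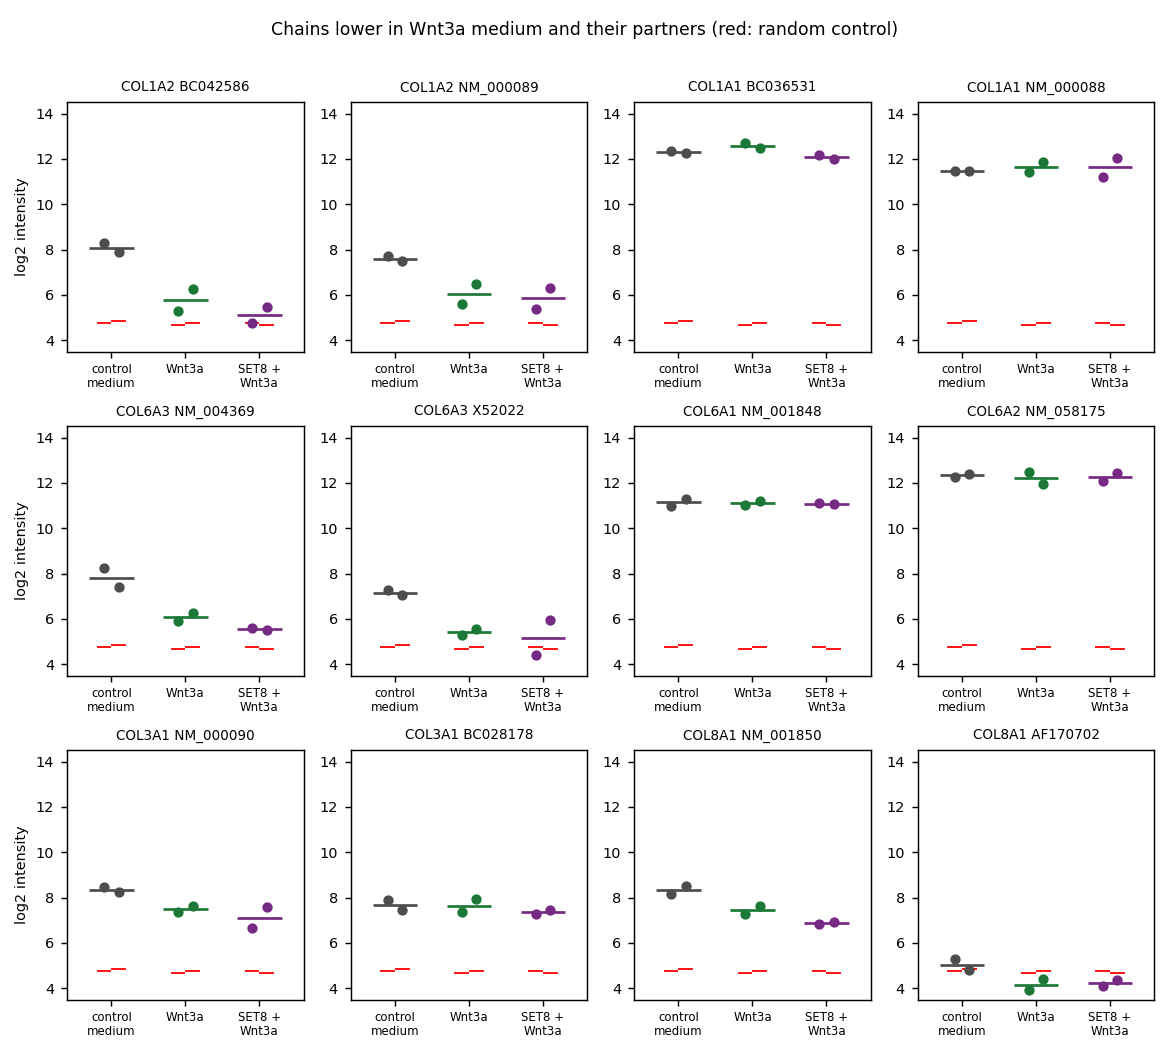
Log2 intensity (vertical axis) of 12 collagen probe sets in the 3 groups (horizontal axis); each point is 1 array, the coloured bar is the mean of 2 arrays, and the red ticks are the random control of each array. COL1A2, COL6A3, COL3A1 NM_000090 and COL8A1 NM_001850 sit lower in both groups with Wnt3a medium, while COL1A1, COL6A1, COL6A2 and COL3A1 BC028178 overlap or lie close across groups.

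COL11A1 and COL9A1, 2 dim chains of cartilage collagens, had higher values with Wnt3a. They were the 2 of 72 (2.78%) that were higher at an unadjusted limma p under 0.05 with no filter. Among all probe sets that share was 2.55%. The cartilage chain COL2A1 had log2 fold changes of 0.10 and -0.01 with Wnt3a, and COL10A1 of -0.13. COL11A1, a chain of the fibrils of cartilage, read 4.76 and 4.58 on the control medium arrays, 5.40 and 5.39 on the Wnt3a arrays, and 4.54 and 4.86 with SET8 shRNA, a log2 fold change of 0.73 (SE 0.28, fit with no filter) with Wnt3a. These values lie less than 1 log2 unit from the random control, which 1 of 2 arrays in control medium and 1 of 2 with SET8 shRNA exceeded, so both fold changes are set against groups that were only partly measured above it, and with SET8 shRNA COL11A1 overlapped the control medium arrays, at a log2 fold change from Wnt3a medium of -0.70 (SE 0.28). COL9A1, of the type IX collagen that coats cartilage fibrils, read 4.60 and 4.43, both at or below the random control, and then 5.31 and 5.10 in Wnt3a medium, which is at least 1.33-fold higher. Its bright partner COL9A3 read 9.81 and 9.97 on the control medium arrays and 10.03 and 10.98 on the Wnt3a arrays (log2 fold change 0.62, SE 0.33), and COL9A2 had a log2 fold change of -0.06 (SE 0.27). The 3 probe sets of COL11A2, the partner of COL11A1, had log2 fold changes of -0.47, -0.61 and 0.29.

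Over the whole family the values with Wnt3a went both ways. The median log2 fold change of the 36 tested collagen probe sets was -0.02, beside 0.02 for all 23808 tested, and their lower quartile was -0.29, beside -0.13. Of the 72, 32 were higher and 40 lower in mean, and 52.5% of all probe sets on the array were higher. Of the 25 genes with several probe sets, 16 had log2 fold changes of the same sign on all of them. Among type IV probe sets, 8 of 11 were higher in mean, with a median of 0.17. COL16A1 AB209571 had a log2 fold change of -1.07 (SE 0.45, fit with no filter), with control medium arrays of 6.51 and 7.90, and was -0.38 without the brighter of them, and the second COL16A1 probe set had a log2 fold change of 0.11.

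Markers of fibroblasts, the main producers of types I, III and VI, were read in the same comparison. Of 10 fibroblast markers, 3 (FBLN1, TWIST1 and S100A4) passed the filter, with a median log2 fold change of -0.07 with Wnt3a. Among the 7 dim ones, DCN, which encodes the fibril-binding proteoglycan decorin, read 7.24 and 7.75 on the control medium arrays, 5.18 and 5.64 on the Wnt3a arrays, and 6.11 and 5.38 with SET8 shRNA. THY1 had a log2 fold change of -1.35, POSTN of -1.79, FAP of -1.12, PDGFRA of -0.49, PDGFRB of -0.45 and LUM of 0.21 with Wnt3a. For DCN, THY1 and POSTN, 3 of the 10, both Wnt3a arrays lay at least 1.5-fold below both arrays of control medium. Among all probe sets on the array that share was 0.908%. The summed intensity of the 10 markers was 11906 to 13577 in control medium, 11300 to 11897 in Wnt3a medium and 11897 to 14699 with SET8 shRNA. In Wnt3a medium, 2 of the 10 (FAP and POSTN) were at or below the random control in both arrays, so their fold changes are not exact values. The sample titles name HEK293 cells and no other cell type. The part of these marker genes in the collagen result was not tested. In bulk samples fewer cells of a type and less RNA per cell cannot be told apart. Of 5 endothelial markers, 0 were above the median in both arrays of any group, and their summed intensity was 478 to 532 in control medium, 298 to 504 in Wnt3a medium and 241 to 256 with SET8 shRNA. The sum of 5 blood markers was 2124 to 2686, 2281 to 2471 and 1025 to 1085 in the same order. Of the 5 blood markers 4 were tested, with a median log2 fold change of 0.01 with Wnt3a and a range from -1.36 (CD4) to 0.22.

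With SET8 shRNA, compared with control shRNA in the same Wnt3a medium, the fibrillar chain COL5A3 had lower values and most chains of type IV had higher means, with no call in the test. COL5A3 was the 1 collagen probe set of 72 (1.39%) in which both SET8 shRNA arrays were at least 1.5-fold below both control shRNA arrays, and 0 were as far above, against 1.45% lower and 1.53% higher among all probe sets. In the limma fit 0 of 36 tested collagen probe sets passed an adjusted p of 0.05, as did 0.0% of all probe sets tested. At an unadjusted limma p under 0.05, 4 were higher (11.1%; COL4A6 NM_001847 and NM_033641, COL5A1 NM_000093 and COL18A1 BC063833) and 1 was lower (2.78%; COL5A3), against 3.76% higher and 3.41% lower among all tested. With no filter there were 1 higher (COL24A1) and 2 lower (COL5A3 and COL11A1) of 72, against 2.56% and 2.49%. The Wnt3a arrays with control shRNA also served in the comparison before.

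COL5A3 is a chain of type V collagen, which is built into type I fibrils and governs their width. Its probe set NM_015719 (chromosome 19, 9931236 to 9982147, hg18) read 9.74 and 9.74 on the control medium arrays, 9.49 and 10.17 on the Wnt3a arrays, and 8.87 and 8.50 with SET8 shRNA. The SET8 shRNA arrays were below all 4 others, and the log2 fold change with Wnt3a alone was 0.08 (SE 0.30). The log2 fold change with SET8 shRNA was -1.14 (SE 0.30, 2.21-fold lower; limma adjusted p = 0.336). Over leave-one-out fits and the other settings tried, it ran from -1.48 to -0.80.

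The other type V chains had values in both directions, and their difference from COL5A3 was not tested. COL5A1 NM_000093, a bright probe set, read 12.54 and 12.11 on the control medium arrays, 12.44 and 12.11 on the Wnt3a arrays, and 12.86 and 12.95 with SET8 shRNA (log2 fold change 0.63, SE 0.26; limma adjusted p = 0.68). COL5A1 AB209864 had a log2 fold change of 0.18 (SE 0.23) and the dim COL5A1 AK057231 of 0.58 (SE 0.33, fit with no filter). COL5A2 had a log2 fold change of -0.26 (SE 0.23) on BC043613 and of -0.68 (SE 0.68) on the dim NM_000393, where 1 of 2 arrays in each of these groups was above the random control. On BC043613 the SET8 shRNA arrays, at 8.30 and 8.12, were below the Wnt3a arrays with control shRNA, at 8.51 and 8.43. All 3 COL5A1 probe sets were thus higher in mean, but only on NM_000093 and AK057231 did the SET8 shRNA arrays lie above both Wnt3a arrays with control shRNA.

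The COL5A3 upstream bases are shown because COL5A3 had the most negative value with SET8 shRNA. They come from chr19:10010505-10010754 (GRCh38.p14, minus strand, RefSeq start), with capitals marking a CCAAT box 122 bases and a GC box (GGGCGG) 16 bases before the start.
COL5A3: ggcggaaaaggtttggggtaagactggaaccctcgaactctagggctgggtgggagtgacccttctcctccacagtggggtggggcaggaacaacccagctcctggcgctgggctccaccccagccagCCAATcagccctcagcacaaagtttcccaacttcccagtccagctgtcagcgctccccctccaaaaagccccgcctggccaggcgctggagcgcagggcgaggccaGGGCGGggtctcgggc

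Type IV collagen has 6 chains, encoded as 3 head-to-head pairs of genes that share the region between their starts. The annotated genes are 172 bases apart for COL4A1 and COL4A2 on chromosome 13, 5 for COL4A3 and COL4A4 on chromosome 2, and 426 for COL4A5 and COL4A6 on the X chromosome, in hg18. With SET8 shRNA 10 of the 11 type IV probe sets were higher in mean, with a median log2 fold change of 0.50, where 50.5% of all probe sets on the array were higher. The exception was the dim COL4A6 BC005305, at -0.34 (SE 0.35, fit with no filter). Of the 11, 8 were above the random control on all 6 arrays. COL4A5 BC035387, among the 10 at 0.26, was above it on 0 arrays, and COL4A3 NM_031363 on 2. Without SET8 shRNA replicate 2, 8 of 11 were higher and the median was 0.21. With log2(value + 32) the median was 0.32. None of the 7 that were tested passed.

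COL4A6, a chain found in the basement membranes of smooth muscle and of Bowman's capsule in the kidney, had the most regular values. COL4A6 NM_033641 (chromosome X, 107285501 to 107568316, hg18) read 10.71 and 10.39 on the control medium arrays, 11.25 and 10.69 on the Wnt3a arrays, and 11.60 and 11.69 with SET8 shRNA. COL4A6 NM_001847 read 10.33 and 9.68, then 10.32 and 10.23, then 10.78 and 11.25. COL4A6 D21337 read 11.28 and 10.93, then 11.27 and 11.02, then 11.55 and 11.84. On all 3 bright probe sets both SET8 shRNA arrays were above the other 4. The log2 fold changes were 0.68 (SE 0.28; limma adjusted p = 0.671), 0.75 (SE 0.30; limma adjusted p = 0.669) and 0.55 (SE 0.26; limma adjusted p = 0.732). These 3 probe sets lie over the same gene and were read on the same arrays, so they are not independent of each other. Their annotated transcripts differ at the start, at 107569367 for NM_001847 and 107568316 for NM_033641 and D21337. The partner chain COL4A5, on NM_000495, read 8.42 and 7.95, then 8.42 and 8.07, then 8.04 and 8.57, a log2 fold change of 0.07 (SE 0.30).

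COL4A1 and COL4A2 form the type IV trimer of nearly all basement membranes. COL4A1 read 9.88 and 8.30 on the control medium arrays, 10.37 and 8.91 on the Wnt3a arrays, and 10.24 and 10.70 with SET8 shRNA, and its log2 fold change of 0.83 with SET8 shRNA had an SE of 0.61. The spread between replicates in the control shRNA groups was more than 1 log2 unit, and the groups overlapped. COL4A2, the brightest collagen probe set, read 13.39 and 12.99, then 13.54 and 13.19, then 13.53 and 13.85 (log2 fold change 0.32, SE 0.27). COL4A4 read 8.56 and 8.49, then 7.95 and 8.40, then 8.67 and 8.67 (log2 fold change 0.50, SE 0.25; limma adjusted p = 0.772). Its partner COL4A3 stayed between 4.19 and 5.87 on both probe sets, near the random control.

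The regions before COL4A6 and between COL4A1 and COL4A2 are shown because the 3 bright COL4A6 probe sets had higher values with SET8 shRNA and because COL4A1 and COL4A2, whose arrays overlapped, share their start region. The first is chrX:108439459-108439708 (minus strand) and the second chr13:110307158-110307283 (plus strand, the 126 bases from start to start), both in GRCh38.p14 from RefSeq. The COL4A6 probe sets have different annotated starts in hg18, 107569367 for NM_001847 and 107568316 for NM_033641 and D21337. The window lies before a single RefSeq start, so its motif positions do not hold for all 3 bright probe sets. Capitals mark motif matches: in COL4A6 3 CCAAT boxes, 145, 137 and 118 bases before the start and the middle one on the other strand, and in the shared region a CCAAT box 105 bases and a GC box 65 bases before the COL4A2 start.
COL4A6: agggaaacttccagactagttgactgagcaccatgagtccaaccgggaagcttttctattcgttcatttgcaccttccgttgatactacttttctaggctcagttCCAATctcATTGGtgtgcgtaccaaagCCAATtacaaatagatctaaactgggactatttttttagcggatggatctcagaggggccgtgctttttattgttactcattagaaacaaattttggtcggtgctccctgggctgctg
COL4A1-COL4A2: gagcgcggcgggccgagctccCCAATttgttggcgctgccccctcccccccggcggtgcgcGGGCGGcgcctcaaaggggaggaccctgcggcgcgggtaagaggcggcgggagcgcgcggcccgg

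Over the 30 collagen genes of 41 that matched the RefSeq promoter table, 9 (30.0%) had CCAAT in the 250 bases before the start, beside 32.01% of all 35116 promoters. GGGCGG was found in 17 (56.7%), beside 42.6%, and TATAAA in 4 (13.3%), beside 10.7%. A TCF/LEF word was found in 2 (6.67%; COL13A1 and COL17A1), beside 12.0%. COL1A1, COL1A2, COL3A1 and COL8A1 have no entry among the matched genes and were not searched. The tested COL17A1 probe sets had log2 fold changes of -0.21 (SE 0.30) and -0.32 (SE 0.36), and COL13A1 was near the random control. Both strands were searched, and no motif overlaps another among those marked.

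**Figure D3:**
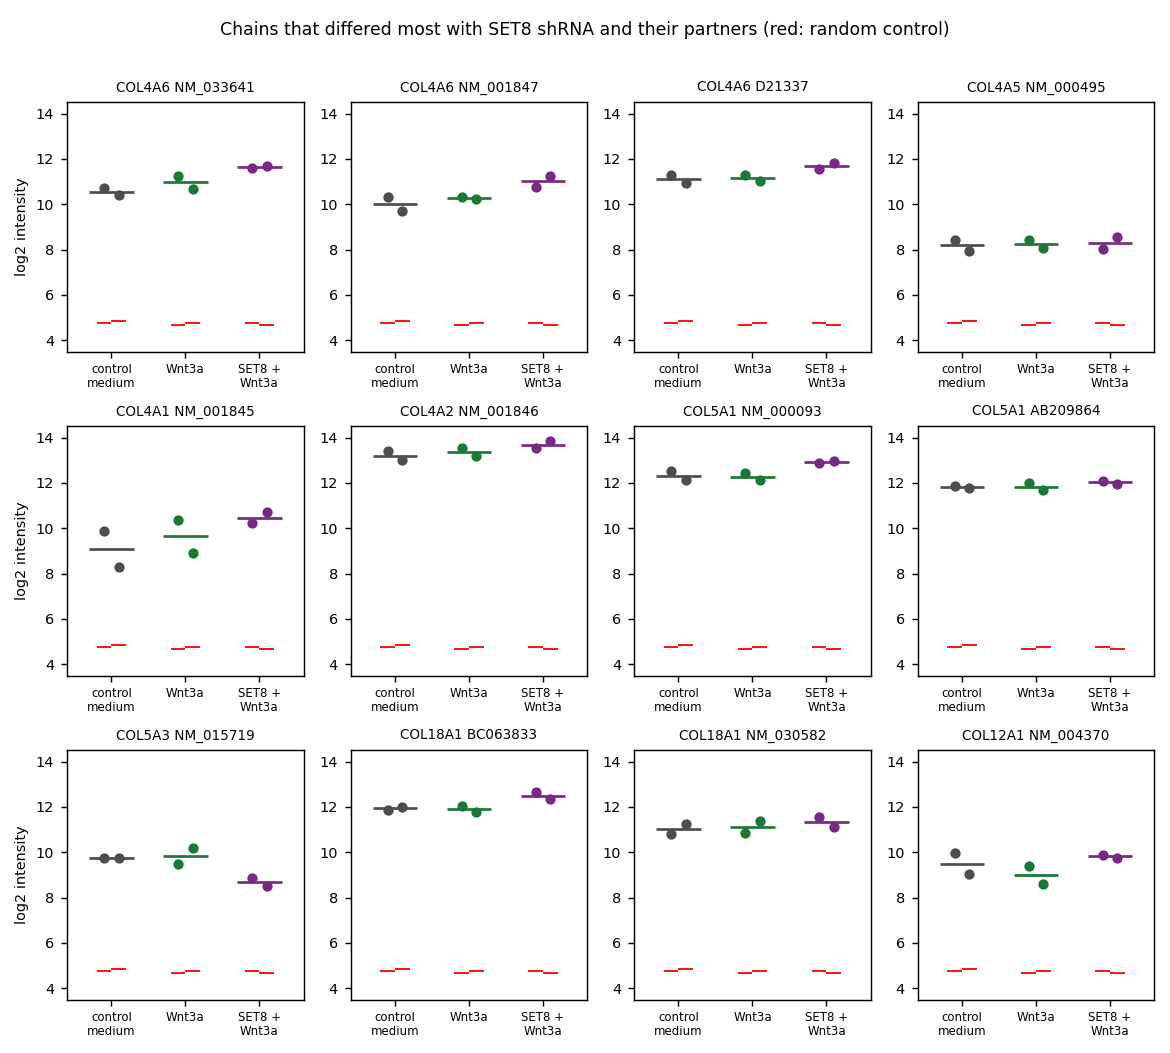
Log2 intensity (vertical axis) of 12 collagen probe sets in the 3 groups (horizontal axis); each point is 1 array, the coloured bar is the mean of 2 arrays, and the red ticks are the random control of each array. The SET8 shRNA arrays of the 3 bright COL4A6 probe sets and of COL5A1 NM_000093 sit above the other 4 arrays, those of COL5A3 below them, and COL4A1 has wide gaps between replicates in the groups with control shRNA.

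Among the remaining classes, COL18A1, whose C-terminal fragment is endostatin, read 11.88 and 12.00, then 12.04 and 11.79, then 12.64 and 12.34 on BC063833 (log2 fold change 0.57 with SET8 shRNA, SE 0.24; limma adjusted p = 0.694). The second COL18A1 probe set, NM_030582, had a log2 fold change of 0.24 (SE 0.31) with overlapping arrays. COL12A1, which coats type I fibrils, read 9.41 and 8.62 in Wnt3a medium and 9.89 and 9.75 with SET8 shRNA (log2 fold change 0.81, SE 0.39), and its control medium arrays were 9.98 and 9.02. COL24A1, a fibrillar chain of developing bone, was at or below the random control in both Wnt3a arrays and read 4.76 and 5.58 with SET8 shRNA, at least 1.36-fold higher. COL7A1 had a log2 fold change of -0.08 (SE 0.39), COL2A1 NM_001844 of 0.32 (SE 0.28) and COL27A1 NM_032888 of 0.00 (SE 0.24). The second COL2A1 probe set, AL834148, read 10.19 and 10.24, then 10.26 and 10.35, then 10.95 and 10.56. Its SET8 shRNA arrays were above all others (log2 fold change 0.45, SE 0.24; limma adjusted p = 0.812), while those of NM_001844 overlapped the other groups.

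The chains with lower values in Wnt3a medium were next read with SET8 shRNA. COL1A2 BC042586 had a log2 fold change of -0.68 (SE 0.40) from control shRNA to SET8 shRNA in Wnt3a medium, COL6A3 NM_004369 of -0.52 (SE 0.35), COL3A1 NM_000090 of -0.39 (SE 0.34) and COL8A1 NM_001850 of -0.55 (SE 0.25). Only for COL6A3 NM_004369 and COL8A1 NM_001850 among these did the SET8 shRNA arrays lie below both Wnt3a arrays. For COL1A2 BC042586, 1 of 2 SET8 shRNA arrays was at or below the random control. COL1A2 NM_000089 had a log2 fold change of -0.19 (SE 0.42), which became 0.25 without Wnt3a replicate 2 and 0.28 without SET8 shRNA replicate 1. The median of the 36 tested collagen probe sets was 0.04, beside 0.01 for all tested. Probe sets of the same gene had the same sign in 15 of 25 genes.

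The FACIT chains, which coat fibrils, ran from -1.07 to 0.81 in log2 fold change with Wnt3a (7 of 13 probe sets higher in mean, median 0.09) and from -0.69 to 0.81 with SET8 shRNA (9 of 13 higher, median 0.08). Only 4 of the 13 were bright enough to test. COL14A1 NM_021110, a chain of tendon and skin, kept close to 1 level, with arrays between 9.67 and 10.21. COL20A1 NM_020882 was at the upper end with Wnt3a, at 6.79 and 5.41 on the control medium arrays, 6.88 and 6.95 on the Wnt3a arrays, and 6.38 and 6.07 with SET8 shRNA. The control medium arrays lay far apart, and COL20A1 BC041767 had a log2 fold change of 0.18 (SE 0.40, fit with no filter). COL22A1, a chain of tissue junctions such as that of muscle and tendon, read 6.02 and 6.41, then 5.29 and 5.80, then 5.51 and 5.84 (log2 fold change -0.67 with Wnt3a, SE 0.32, fit with no filter). COL19A1 read 4.88 and 4.94, then 4.58 and 4.52, then 4.44 and 3.93, so it was above the random control in control medium alone. COL21A1 stayed between 4.99 and 5.68.

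The transmembrane chains, which stay anchored in the cell surface, had narrow ranges: -0.32 to 0.32 with Wnt3a and -0.22 to 0.53 with SET8 shRNA over 9 probe sets. COL17A1, of the hemidesmosomes that fix epithelia to their basement membrane, was the 1 gene of this class bright enough to test. COL23A1 lay between 5.56 and 6.75 and COL25A1 between 4.35 and 5.95, with overlapping groups on most probe sets. COL15A1, the relative of COL18A1, read 5.32 and 5.61, then 4.44 and 5.27, then 5.22 and 5.69, so 1 Wnt3a array was below the random control and the SET8 shRNA arrays overlapped both other groups. COL28A1 NM_001037763 was near the random control on every array.

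**Figure D4:**
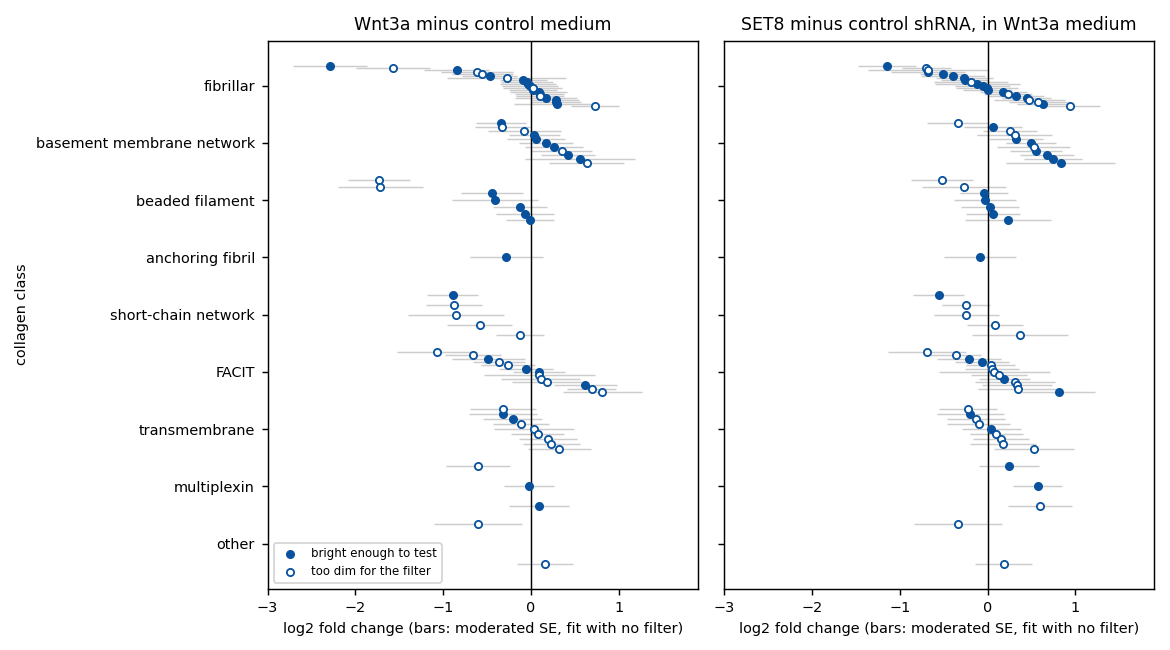
Log2 fold change (horizontal axis) of each collagen probe set by class (vertical axis), for Wnt3a minus control medium on the left and SET8 minus control shRNA in Wnt3a medium on the right; filled points passed the filter, open points were too dim for it, and bars are the moderated SE of the fit with no filter. The lowest points on the left are COL1A2 (-2.29 and -1.58) and COL6A3 (-1.73 and -1.72), and 10 of 11 basement membrane points on the right are above 0. Of these 11 probe sets, 8 were above the random control on all arrays.

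Set against control shRNA with control medium, the cells with SET8 shRNA and Wnt3a medium differed by both treatments, and this comparison shares its arrays with the other comparisons. COL1A2 BC042586 was 7.84-fold lower (log2 fold change -2.97, SE 0.40), with a limma adjusted p of 0.0546. On this probe set 1 of 2 SET8 shRNA arrays was at or below the random control, so the difference is only partly measured above it. COL8A1 NM_001850 was 2.72-fold lower (-1.45, SE 0.25; limma adjusted p = 0.0982). In the fit with no filter COL6A3 had a log2 fold change of -2.25 (SE 0.35) on NM_004369 and -1.99 (SE 0.48) on X52022. On X52022, too, 1 of 2 SET8 shRNA arrays was at or below the random control. COL3A1 NM_000090 had a log2 fold change of -1.24 (SE 0.34) and COL5A3 of -1.06 (SE 0.30). COL4A6 NM_033641 was 2.14-fold higher (1.10, SE 0.28; limma adjusted p = 0.192) and COL4A6 NM_001847 was 2.01-fold higher (1.01, SE 0.30; limma adjusted p = 0.277). In total 0 of 36 collagen probe sets passed an adjusted p of 0.05, beside 0.0504% of all tested. At an unadjusted limma p under 0.05, 2 were higher and 4 lower, against 6.48% and 4.07% of all tested. With no filter there were 3 higher and 9 lower of 72, against 5.24% and 3.67%.

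Between these outer groups the summed endothelial and blood markers were also lower in both arrays with SET8 shRNA, and their part in the collagen values was not tested. Both arrays of each group were apart by at least 1.5-fold for 1 probe set that was higher (1.39%; COL4A6 NM_033641) and 8 that were lower (11.1%), against 3.23% and 1.95% of all probe sets. The 8 were both probe sets of COL1A2 and of COL6A3, COL3A1 NM_000090, COL8A1 NM_001850, COL5A3 and the dim COL28A1 XM_295195. The last is at or below the random control with SET8 shRNA, at least 1.55-fold lower. The median of the 36 tested collagen probe sets was 0.14, beside 0.02 for all tested. COL1A2 BC042586, COL8A1 NM_001850 and COL3A1 NM_000090 are 3 of the 4 lower at an unadjusted limma p under 0.05. They entered the test through the control medium arrays alone, where they are high, so their p-values and that count give no support of their own. In the fit with no filter the limma adjusted p were 0.165 for COL1A2 BC042586 and 0.233 for COL8A1 NM_001850. For COL1A2 BC042586 and COL8A1 NM_001850 the side of the threshold also depended on the fit. With only the 4 arrays of the comparison their limma adjusted p were 0.00794 and 0.0428, beside 0.0546 and 0.0982 in the main fit. Leaving out either array of control shRNA with Wnt3a medium gives that same 4-array result, so it is not a further setting.

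Collagen chains are modified, folded, cut and cross-linked by a set of helper proteins. In none of the lists of such genes did a member pass the test on its brightest probe set. Of 16 modifying and folding enzymes, among them the prolyl hydroxylases, the lysyl hydroxylases and the chaperone SERPINH1 (HSP47), 14 were tested, with medians of 0.06 with Wnt3a and 0.09 with SET8 shRNA. None had an unadjusted limma p under 0.05, and SERPINH1 had a log2 fold change of 0.08 (SE 0.24) and 0.23 (SE 0.24). Of 13 secretion and processing genes, 9 were tested, with medians of 0.03 and 0.10. PCOLCE, which speeds the removal of the C-terminal propeptide of fibrillar procollagens, read 9.38 and 9.86, then 9.18 and 10.13, then 10.76 and 10.49. Its log2 fold change with SET8 shRNA was 0.98 (SE 0.36; limma adjusted p = 0.601).

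The cross-linking enzymes were all tested (7 of 7), with medians of 0.01 with Wnt3a and 0.24 with SET8 shRNA. LOXL4, a lysyl oxidase, read 8.84 and 8.78, then 8.34 and 8.20, then 7.92 and 7.95, so its 3 groups did not overlap (log2 fold change -0.54 with Wnt3a, SE 0.22; limma adjusted p = 1.0). Between the outer groups LOXL4 had a log2 fold change of -0.88 (SE 0.22), LOXL3 of 0.82 (SE 0.23) and the transglutaminase TGM2 of 0.91 (SE 0.25), with limma adjusted p of 0.189, 0.239 and 0.233. Of 10 collagen receptors 5 were tested, and none had an unadjusted limma p under 0.05. Of 10 genes of collagen degradation 6 were tested. CTSK, a collagen-cutting protease of osteoclasts, had a log2 fold change of -0.81 (SE 0.27) with Wnt3a and 0.65 (SE 0.27) with SET8 shRNA, with limma adjusted p of 1.0 and 0.681. TIMP2, an inhibitor of matrix proteases, had a log2 fold change of 0.99 (SE 0.37) between the outer groups.

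The partners of type IV in basement membranes (laminins, nidogens, HSPG2, AGRN and SPARC) were all above the array median (14 of 14 in both arrays of every group). Their median log2 fold change was 0.02 with Wnt3a and 0.15 with SET8 shRNA, on the brightest probe set of each gene. The median of 0.50 for type IV is an unlike measure. It is taken over all 11 probe sets, of which 7 were tested. LAMA2, a laminin chain of muscle, had a log2 fold change of -0.70 (SE 0.29; limma adjusted p = 0.678) with SET8 shRNA, and 0 of the 14 were higher at an unadjusted limma p under 0.05. At an unadjusted limma p under 0.05, 2 HEK293 markers (LHX1 and NEFL) were higher with SET8 shRNA and 3 blood markers (CD68, HBA1 and HBA2) were lower, and their part in the collagen values was not tested.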

How the data were processed

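Expression was measured with single-colour NimbleGen arrays labelled with Cy3. The authors deposited 1 linear intensity per probe set and array, made with RMA per the submitters' processing notes; its version and settings are not given in the sources used here, and the deposited series table holds the same values (largest difference 0). Positions are hg18 per the file headers. Here log2 of the intensity was taken with no offset. Groups came from the sample titles. The test was limma 3.58.1 (lmFit and eBayes, R 4.3.3) with a mean per group and 1 shared spread over the 6 arrays. It ran on 23808 probe sets above the array median in at least 2 arrays (21225 were not tested). The residual degrees of freedom were 3, the prior ones 4.32, and the prior SD 0.282. Calls used a Benjamini-Hochberg adjusted p under 0.05. The number of arrays limits the precision. The script was tested on simulated data.

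The members, the lists and the tests were chosen with earlier results of these data known. Named are COL1A1, COL1A2, COL3A1, every collagen probe set with an unadjusted p under 0.05 in a comparison, the 10 brightest, their further probe sets and partner chains, and list members with an unadjusted p under 0.05. Nothing in the labels ties samples of the same replicate number, so no block was used; deviations from group means of same-numbered arrays correlated at 0.75 between control and Wnt3a medium and at -0.29 between either of these and SET8 shRNA. A bound was computed on a probe set at or below the random control in both arrays of a group, against that control. In the lists of markers and of collagen-related genes, each gene was read on its brightest probe set, by the mean over all arrays.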

Additional observations from a re-analysis of the deposited data

How the results depend on the processing

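With 2 arrays in each group, the spread of a single collagen is poorly known, and probe sets at the random control give only bounds. In the comparisons of Wnt3a with control medium and of SET8 with control shRNA, 0 collagen probe sets passed under any alternative. Between SET8 shRNA with Wnt3a and control shRNA with control medium, 1 passed with log2(value + 32), 2 with the 4 arrays of the comparison, and 0 to 2 when 1 array was left out. With the replicate number as a block the count was 0 in all 3 comparisons. With the numbers of the SET8 shRNA arrays crossed, a setting added after seeing the data, the count in that comparison was 3. COL1A2 BC042586 and COL8A1 NM_001850 passed in some of these settings. They entered the test through the control medium arrays alone, where they are high, so their passes give no support of their own.

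The Wnt3a median was 0.0605 under the 60th percentile filter, -0.0883 with median centring and -0.0703 to 0.0284 when 1 array was left out. The SET8 shRNA median was 0.21 under the 60th percentile filter, 0.0013 with 1 probe set per gene and 0.0376 to 0.124 when 1 array was left out. The median between the outer groups was 0.0218 with no filter, 0.0374 with the filter on the random control, 0.298 under the 60th percentile filter, 0.0680 after quantile normalization, 0.0464 with median centring and 0.0223 to 0.149 when 1 array was left out. The count of collagen probe sets apart by 1.5-fold, also added after seeing the data, is 6, 1 and 9 with all arrays, and 4, 1 and 8 with log2(value + 32), where COL11A1 is no longer among those higher with Wnt3a. It ran from 7 to 17 with Wnt3a, 7 to 14 with SET8 shRNA and 12 to 19 between the outer groups when 1 array was left out, where 1 array stands for a group and the criterion is easier to meet. Without SET8 shRNA replicate 2 the type IV median was 0.21. With 1 probe set per gene, 32 of 41 were above the random control on all arrays. Of 440 values of named probe sets under the alternatives, 431 kept their direction and their side of the threshold, 7 passed it (COL1A2 BC042586 and COL8A1 NM_001850), and 2 reversed: COL1A2 NM_000089 with SET8 shRNA was 0.25 without Wnt3a replicate 2 and 0.28 without SET8 shRNA replicate 1 (-0.65 without SET8 shRNA replicate 2). For COL1A2 BC042586 between the outer groups, limma adjusted p ran from 0.00794 to 0.653. Several of the 7 values that passed repeat the same fit. Leaving out either array of control shRNA with Wnt3a medium gives the same outer comparison as its own arrays alone. The causes were not tested.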
